A study of Ginkgo biloba with 2 samples.

Results

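Described here are the 219 *Ginkgo biloba* sequences annotated to the Calvin cycle and photorespiration. They are part of 64515 sequences with reads in mature ovules or fully expanded leaves. A sequence was a member when its gene ontology process named photorespiration, the reductive pentose-phosphate cycle or carbon fixation, or when the description of its best BLAST hit named Rubisco, phosphoribulokinase, sedoheptulose or glycolate oxidase. The ontology brought in 198 members and the description 56, with 35 found by both, and 1 chloroplast genome entry with 0 reads in ovule and 1 in leaf was left out. Both tissues came from female trees in the same month, and the question was how mRNA levels differ between them. The labels do not say how many trees were sampled. Each tissue had 1 library, with a depth, in units of 1000000 uniquely mapped reads, of 4.58 for the ovule library and 4.25 for the leaf library. There are no replicates, so no test was possible, and each difference below compares these 2 libraries.

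In the Calvin cycle the enzyme Rubisco joins carbon dioxide to ribulose bisphosphate in the chloroplast stroma, and further enzymes reduce the product to sugar phosphates and rebuild the acceptor. Rubisco also reacts with oxygen, which gives phosphoglycolate. Photorespiration recovers that carbon through chloroplast, peroxisome and mitochondrion, releasing carbon dioxide and ammonia, and it is best known from photosynthesising leaves.

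Levels are given as RPKM, the reads per 1000 bases of sequence and per 1000000 uniquely mapped reads. Sequences that reached 1 RPKM in either library were compared on the scale of log2((RPKM in ovule + 0.5)/(RPKM in leaf + 0.5)), which understates the difference of low sequences, and a sequence was called ovule-high at a log2 ratio of 1 or more and leaf-high at -1 or less. Folds are ratios of reads per 1000000, and the parentheses after them hold the 95% interval from the pair of read counts (exact, Clopper-Pearson). The intervals cover counting error only, not the spread between trees. Assembled sequences carry the names Unigene or CL, and GenBank sequences are named by their length. All counts, also of copies, are counts of sequences, and which sequences come from the same gene was not tested.

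Members went in opposite directions by role. Of 158 members past the filter, 65 (41.1%) were called ovule-high, where 27.3% of the 56768 sequences past the filter were. Another 49 (31.0%) were called leaf-high, against 35.1% of all sequences, and 44 lay under 2-fold, against 37.6% of all sequences. Where the counting interval also had to exclude 1, 61 of the 158 members were ovule-high and 35 leaf-high. Of the 56768 sequences, 9794 (17.3%) were then ovule-high and 7703 (13.6%) leaf-high. Under this stricter rule the member share was above that of all sequences in both directions. The rule removes calls on few reads, so these shares depend on read depth. The median log2 ratio was 0.69 over the members and -0.10 over all sequences. Summed reads ran the other way, with 36608 reads on members in ovule, 0.799% of the library, and 61917 in leaf, 1.46% of the library. In bulk tissue, fewer cells of a type and less RNA per cell cannot be told apart.

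The name of the pathway fits only some of the members. Sorted by description and annotated function, 92 were core enzymes of both pathways and 127 were something else, mostly mitochondrial respiratory subunits and other housekeeping proteins. Of 51 core enzymes past the filter, 8 were called ovule-high, 30 were called leaf-high and 13 lay under 2-fold, with a median log2 ratio of -1.42. Of 107 other members past the filter, 57 were called ovule-high, 19 leaf-high and 31 lay under 2-fold, with a median of 1.09. The compartment divided them in the same way. Among members annotated to the chloroplast stroma, 3 were called ovule-high and 26 leaf-high out of 36 past the filter. Among members annotated to the mitochondrion and not the stroma, 42 were called ovule-high and 1 leaf-high out of 57 past the filter. These compartments come from the same annotation as the membership. Of the 164 members with the photorespiration term, 65 also carried a protein breakdown term, and 33 of the 57 of these past the filter were called ovule-high and 5 leaf-high.

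**Figure D1:**
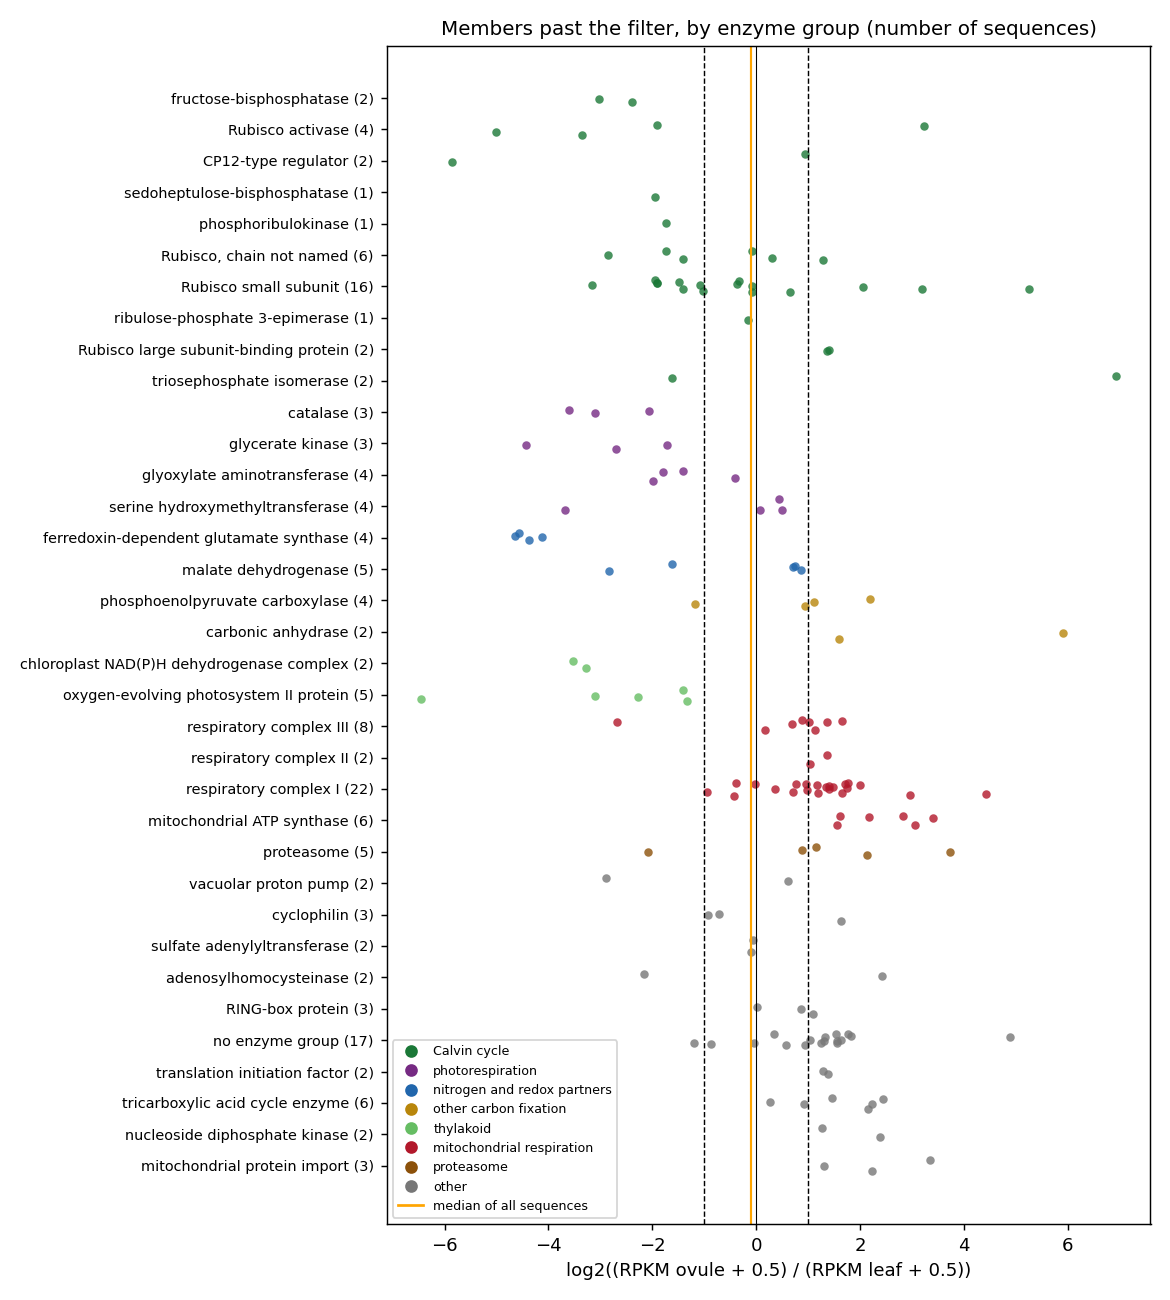
Each point is 1 of the 158 members past the filter, placed by its log2 ratio of RPKM in ovule over leaf (x axis, each with 0.5 added) and by enzyme group (y axis, with the number of sequences). Dashed lines mark 2-fold and the orange line the median of all sequences. Photorespiratory enzymes and glutamate synthases lie mostly to the left, toward leaf, and respiratory subunits mostly to the right, toward ovule.

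Rubisco itself had many sequences, most with few uniquely mapped reads, and mixed ratios. The small subunit, the nuclear-encoded chain of Rubisco, had 44 member sequences, of which 16 passed the filter, 3 were called ovule-high and 8 leaf-high. Summed over copies it had 841 reads in ovule and 601 in leaf, 1.30-fold (1.17 to 1.44) higher in ovule. That direction rested on Unigene302, with 682 reads in ovule and 403 in leaf (85.0 RPKM in ovule, 54.2 RPKM in leaf). Reads covered 12.7% of Unigene302 in each library. Without it the copies had 159 reads in ovule and 198 in leaf, an ovule-to-leaf ratio of 0.744 (0.600 to 0.921).

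Some small subunit copies were seen in 1 tissue almost alone. A GenBank sequence of 542 bases had 46 reads in ovule and 0 in leaf, at least 14.2-fold higher in ovule when leaf is set at 3 reads. Unigene7483 had 24 reads in ovule and 2 in leaf, 11.1-fold (2.76 to 97.1) higher in ovule. A GenBank sequence of 776 bases had 0 reads in ovule and 13 in leaf, at least 4.68-fold higher in leaf. Another of 435 bases had 26 reads in ovule and 50 in leaf, 2.08-fold (1.27 to 3.47) higher in leaf. Only uniquely mapped reads were counted, so reads shared by near-identical copies are missing. The values of single copies and of their sum are therefore uncertain, and the level of the small subunit cannot be read from them.

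**Figure D2:**
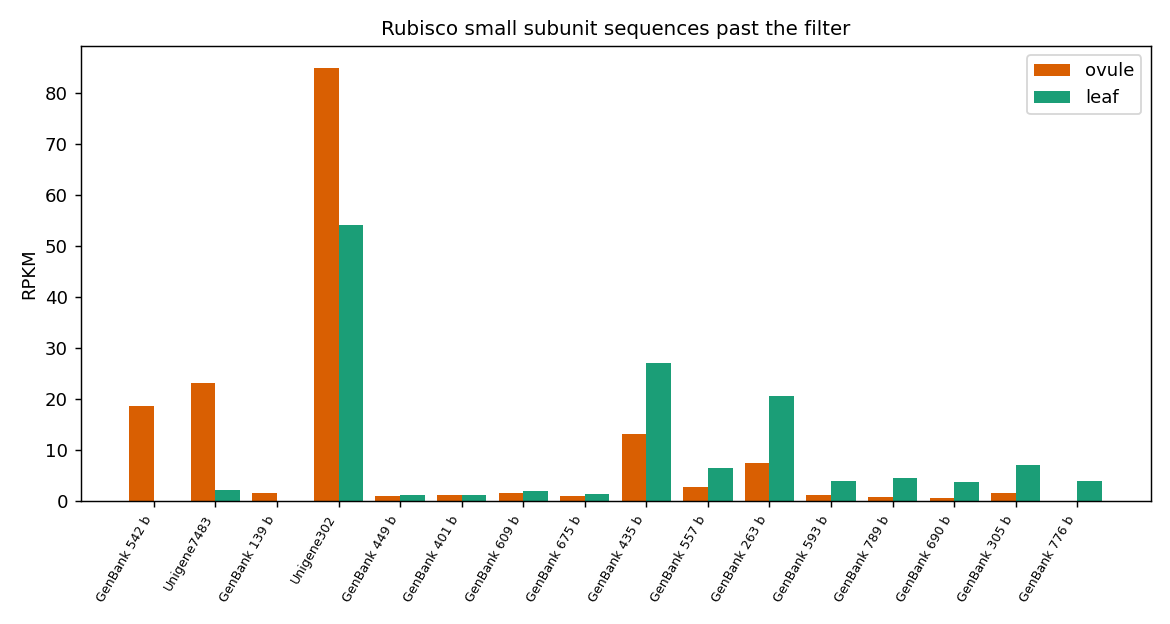
Bars give the RPKM (y axis) of the 16 Rubisco small subunit sequences past the filter, with ovule left of leaf in each pair, ordered by log2 ratio from higher in ovule to higher in leaf. Unigene302 has the tallest bars, with 85.0 RPKM in ovule and 54.2 in leaf, and most other copies are far lower.

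The proteins that assemble and activate Rubisco differed from each other. Rubisco activase, which frees the enzyme's active site of bound sugar phosphates, had 154 reads in ovule and 2039 in leaf over 5 sequences, 14.3-fold (12.1 to 16.9) higher in leaf. A GenBank activase of 515 bases had 56 reads in ovule and 1704 in leaf (23.7 RPKM in ovule, 779 RPKM in leaf), 32.8-fold (25.2 to 43.7) higher in leaf, with 19.6% of its bases covered in ovule and 20.4% in leaf. Without this sequence the activases were 3.69-fold (2.94 to 4.67) higher in leaf. Unigene24625, covered over 64.1% of its bases in ovule and 74.9% in leaf, had 83 reads in ovule and 300 in leaf, 3.90-fold (3.05 to 5.04) higher in leaf. A GenBank activase of 623 bases had 12 reads in ovule and 0 in leaf, at least 3.71-fold higher in ovule.

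The Rubisco large subunit-binding protein, a plastid chaperonin that helps Rubisco fold, went the other way. Its 4 sequences had 184 reads in ovule and 63 in leaf, 2.71-fold (2.02 to 3.66) higher in ovule. The 2 sequences past the filter were both called ovule-high. A further 9 sequences annotated as Rubisco without a named chain had only 18 reads in ovule and 27 in leaf, an ovule-to-leaf ratio of 0.618 (0.320 to 1.16), and the difference was not detectable at this depth.

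The bisphosphatases that pull the regeneration phase forward were higher in leaf. Sedoheptulose-bisphosphatase, an enzyme largely particular to this cycle, was represented by CL3660.Contig1 with 411 reads in ovule and 1476 in leaf (60.5 RPKM in ovule, 234 RPKM in leaf), 3.88-fold (3.47 to 4.33) higher in leaf. Fructose-bisphosphatase, which acts at the matching earlier step and also in sucrose synthesis, was represented chiefly by Unigene10827 with 446 reads in ovule and 2194 in leaf (56.8 RPKM in ovule, 302 RPKM in leaf), 5.31-fold (4.79 to 5.89) higher in leaf. A GenBank fructose-bisphosphatase of 475 bases had 3 reads in ovule and 30 in leaf, a ratio of 10.8 (3.36 to 55.3) in the same direction.

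The remaining cycle enzymes among the members rested on few or divergent sequences. Triosephosphate isomerase, shared with glycolysis, had 1 sequence on each side. A GenBank sequence of 464 bases had 128 reads in ovule and 0 in leaf, at least 39.5-fold higher in ovule and the largest log2 ratio toward ovule among the 158 members past the filter. Unigene6506 had 84 reads in ovule and 247 in leaf, 3.17-fold (2.47 to 4.12) higher in leaf. Ribulose-phosphate 3-epimerase, Unigene23885, had 17 reads in ovule and 18 in leaf, a leaf-to-ovule ratio of 1.14 (0.556 to 2.36). The member phosphoribulokinase had no read in ovule and 3 in leaf, and the member transketolase none in ovule and 2 in leaf, too few to compare.

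Both members past the filter whose annotation is negative regulation of the reductive pentose-phosphate cycle, the term given to CP12 in *Arabidopsis*, differed in opposite directions. CP12 is a small protein that binds cycle enzymes in the dark. Unigene15959 had 21 reads in ovule and 1224 in leaf (5.37 RPKM in ovule, 338 RPKM in leaf), 62.9-fold (41.0 to 102) higher in leaf. Unigene21637 had 1100 reads in ovule and 531 in leaf (258 RPKM in ovule, 135 RPKM in leaf), 1.92-fold (1.73 to 2.13) higher in ovule, under the threshold for a call. Their hits are described only as unknown spruce proteins.

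Over all Calvin cycle groups, 75 members had 3407 reads in ovule and 8458 in leaf, 2.68-fold (2.57 to 2.79) higher in leaf. Of the 37 past the filter, 8 were called ovule-high and 20 leaf-high. Sorted by description alone, 55 members had 1179 reads in ovule and 2711 in leaf, 2.48-fold (2.32 to 2.66) higher in leaf. That difference rested on the 515-base activase, since without it the description-sorted set had 1123 reads in ovule and 1007 in leaf, a leaf-to-ovule ratio of 0.968 (0.888 to 1.05).

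**Figure D3:**
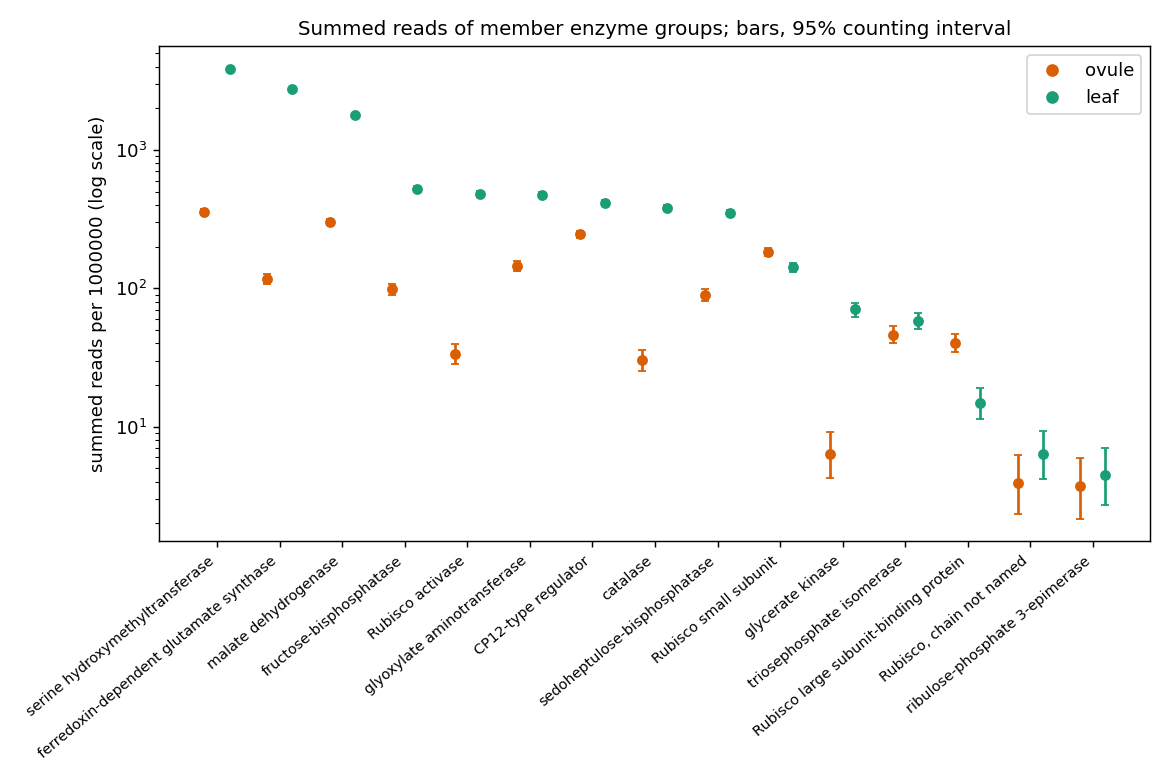
Points give summed reads per 1000000 (y axis, log scale) of the member enzyme groups of the Calvin cycle, photorespiration and their nitrogen and redox partners with more than 20 reads, with ovule left of leaf and 95% counting intervals. Serine hydroxymethyltransferase reaches 358 in ovule and 3820 in leaf, and the Rubisco small subunit and its large subunit-binding protein are the plotted groups with ovule above leaf.

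Photorespiratory enzymes formed the more uniform set. Of 14 past the filter, 0 were called ovule-high, 10 were called leaf-high and 4 lay under 2-fold, with a median log2 ratio of -1.89. For 7 of the 10 the counting interval also excluded 1. Their 17 sequences had 2471 reads in ovule and 20143 in leaf, 8.80-fold (8.44 to 9.18) higher in leaf. One serine hydroxymethyltransferase supplied most of these reads, and without it the rest were 3.95-fold (3.70 to 4.22) higher in leaf. Sorted by description alone there were 7 sequences, 5.02-fold (4.50 to 5.62) higher in leaf, and without the catalase CL22.Contig1 the other 6 had 249 reads in ovule and 201 in leaf, a leaf-to-ovule ratio of 0.871 (0.720 to 1.05).

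Serine hydroxymethyltransferase, which in mitochondria turns glycine into serine, showed 1 copy unlike the others. CL3728.Contig2 had 1340 reads in ovule and 16004 in leaf (132 RPKM in ovule, 1706 RPKM in leaf), 12.9-fold (12.2 to 13.6) higher in leaf, the highest leaf level of any member. Unigene12537 had 199 reads in ovule and 136 in leaf, 1.36-fold (1.08 to 1.70) higher in ovule, and the other 2 copies also lay under 2-fold. Without CL3728.Contig2 the group turned, with 300 reads in ovule and 213 in leaf, 1.30-fold (1.09 to 1.56) higher in ovule.

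In the peroxisomal steps, catalase, which removes the hydrogen peroxide made by glycolate oxidase, was represented by CL22.Contig1 with 137 reads in ovule and 1596 in leaf (14.8 RPKM in ovule, 186 RPKM in leaf), 12.6-fold (10.6 to 15.1) higher in leaf. Reads covered 12.1% of its bases in ovule and 15.0% in leaf. The glyoxylate aminotransferases, which convert glyoxylate to glycine, were led by Unigene23891 with 433 reads in ovule and 1599 in leaf (44.4 RPKM in ovule, 177 RPKM in leaf), 3.99-fold (3.58 to 4.44) higher in leaf. A pair of sequences with the same annotated function are described as gamma-glutamyl transferases, so their place in this step is uncertain. Of these, Unigene11517 was 2.78-fold (2.17 to 3.58) higher in leaf and CL1638.Contig2 was 1.34-fold (1.07 to 1.69) higher in leaf. The only glycolate oxidase among the members had 0 reads in ovule and 1 in leaf.

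Glycerate kinase, the chloroplast enzyme that returns the recovered carbon to the Calvin cycle, had 29 reads in ovule and 298 in leaf over 3 sequences. All 3 were called leaf-high, and for 2 of them the counting interval excluded 1. CL3690.Contig1 had 28 reads in ovule and 192 in leaf, 7.40-fold (4.96 to 11.4) higher in leaf. Unigene14868 had 1 read in ovule and 102 in leaf, a ratio of 110 (19.3 to 4390).

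The enzymes that recycle the ammonia and reducing power of photorespiration were also higher in leaf. Ferredoxin-dependent glutamate synthase, which works with glutamine synthetase to refix the released ammonia, had 534 reads in ovule and 11654 in leaf over 4 sequences, 23.6-fold (21.6 to 25.7) higher in leaf. All 4 of these sequences were called leaf-high, and whether they are separate genes or parts of the same transcript was not tested. Unigene6480 had 202 reads in ovule and 4764 in leaf (25.5 RPKM in ovule, 650 RPKM in leaf), Unigene16075 had 217 in ovule and 4291 in leaf (16.4 RPKM in ovule, 350 RPKM in leaf), and CL911.Contig1 had 115 in ovule and 2592 in leaf (23.7 RPKM in ovule, 578 RPKM in leaf). The fold toward leaf was 25.5 (22.1 to 29.4) for Unigene6480, 21.3 (18.6 to 24.6) for Unigene16075 and 24.3 (20.2 to 29.6) for CL911.Contig1, with 72.9% or more of their bases covered in each library.

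Malate dehydrogenase, which in peroxisomes supplies the reducing power for hydroxypyruvate, entered through the term regulation of photorespiration. CL2388.Contig1, annotated to the glyoxysome, had 1120 reads in ovule and 7389 in leaf (116 RPKM in ovule, 829 RPKM in leaf), 7.12-fold (6.69 to 7.59) higher in leaf. The 3 other copies with more than 1 read lay under 2-fold, and without CL2388.Contig1 the group turned, 1.69-fold (1.38 to 2.09) higher in ovule.

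Thylakoid proteins also carried the photorespiration or carbon fixation terms, and 7 of 7 past the filter were called leaf-high. Unigene15961, annotated to photosystem II, had 389 reads in ovule and 910 in leaf (116 RPKM in ovule, 292 RPKM in leaf), 2.52-fold (2.24 to 2.85) higher in leaf. A GenBank sequence of 720 bases annotated to the same complex had 0 reads in ovule and 132 in leaf, at least 47.5-fold higher in leaf. A pair of sequences was annotated to the chloroplast NAD(P)H dehydrogenase, which carries electrons around photosystem I. Together CL7621.Contig1 and CL7621.Contig2 had 9 reads in ovule and 132 in leaf, 15.8-fold (8.09 to 35.4) higher in leaf. Their names share a CL number, and whether they are different subunits was not tested.

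**Figure D4:**
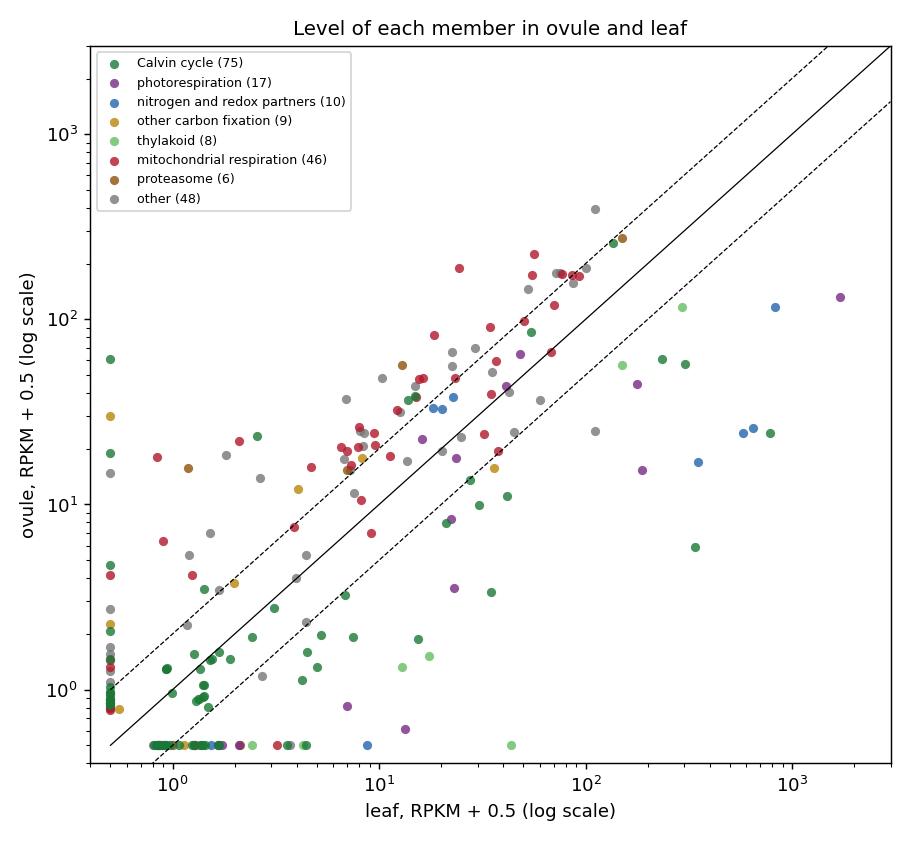
Each of the 219 members is placed by its level in ovule (y axis) and in leaf (x axis), both as RPKM + 0.5 on log scales and coloured by class, with the number of sequences in the legend. The solid line marks equal levels and the dashed lines 2-fold. The points farthest to the right, with leaf levels up to 1706 RPKM, include photorespiratory enzymes, their nitrogen and redox partners and a Rubisco activase at 779 RPKM. These lie below the diagonal, and respiratory subunits lie mostly above it.

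Carbon-fixing enzymes outside the Calvin cycle were mixed. Phosphoenolpyruvate carboxylase, which in non-photosynthetic tissue supplies carbon skeletons, had 357 reads in ovule and 218 in leaf, 1.52-fold (1.28 to 1.80) higher in ovule. Unigene21295 had 297 reads in ovule and 123 in leaf, 2.24-fold (1.81 to 2.78) higher in ovule, and CL2811.Contig1 had 35 in ovule and 75 in leaf, 2.31-fold (1.53 to 3.56) higher in leaf. Without Unigene21295 the group turned, with an ovule-to-leaf ratio of 0.585 (0.416 to 0.817). The 2 member carbonic anhydrases were higher in ovule. A GenBank sequence of 729 bases had 99 reads in ovule and 0 in leaf, at least 30.6-fold higher in ovule. Unigene16276, annotated to respiratory complex I, had 64 reads in ovule and 18 in leaf, 3.29-fold (1.93 to 5.91) higher in ovule.

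Mitochondrial respiration was the named class with the most members called ovule-high. Its 46 sequences had 10606 reads in ovule and 4272 in leaf, 2.30-fold (2.22 to 2.38) higher in ovule, and of 38 past the filter 25 were called ovule-high and 1 leaf-high, on 2 leaf reads. In complex I, which takes electrons from NADH, 13 of 22 past the filter were called ovule-high and 0 leaf-high. Unigene11468 had 1275 reads in ovule and 293 in leaf (224 RPKM in ovule, 55.5 RPKM in leaf), 4.03-fold (3.55 to 4.59) higher in ovule. Unigene7006 had 550 reads in ovule and 64 in leaf (189 RPKM in ovule, 23.8 RPKM in leaf), 7.96-fold (6.14 to 10.5) higher in ovule. Some subunits did not share this, among them Unigene24068 with 65 reads in ovule and 117 in leaf, named after its values were seen.

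In complex III, 4 of 8 past the filter were called ovule-high, 1 leaf-high and 3 lay under 2-fold. Unigene12213, among those called, had 867 reads in ovule and 254 in leaf, 3.16-fold (2.75 to 3.65) higher in ovule, and the most-read CL1167.Contig1 lay under 2-fold with 1719 reads in ovule and 865 in leaf. Mitochondrial ATP synthase had 777 reads in ovule and 189 in leaf, 3.81-fold (3.25 to 4.49) higher in ovule, and 6 of 6 past the filter were called ovule-high. Its Unigene25231 had 73 reads in ovule and 5 in leaf, 13.5-fold (5.54 to 42.9) higher in ovule. Enzymes of the tricarboxylic acid cycle, annotated with photorespiration through shared terms, had 5047 reads in ovule and 2167 in leaf, 2.16-fold (2.05 to 2.27) higher in ovule. The cytoplasmic-type aconitase Unigene6876 was the most-read of them, with 3294 reads in ovule and 1617 in leaf.

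The 6 proteasome sequences had 2995 reads in ovule and 1375 in leaf, 2.02-fold (1.89 to 2.15) higher in ovule, and of 5 past the filter 3 were called ovule-high, 1 leaf-high and 1 lay under 2-fold. The regulatory subunit Unigene7151, under the threshold for a call, had 2463 reads in ovule and 1242 in leaf (275 RPKM in ovule, 149 RPKM in leaf), and Unigene6533 had 362 in ovule and 74 in leaf, 4.53-fold (3.52 to 5.90) higher in ovule. Of the 48 members in no class named above, the tricarboxylic acid cycle enzymes included, 42 passed the filter, with 25 called ovule-high and 3 leaf-high. Unigene12304, which has no annotated function, had 1653 reads in ovule and 430 in leaf (394 RPKM in ovule, 111 RPKM in leaf), the highest ovule level of any member. Adenosylhomocysteinase, an enzyme of the methyl cycle, again had sequences on either side, with 321 ovule and 52 leaf reads on Unigene6518, against 48 ovule and 201 leaf reads on a GenBank sequence of 426 bases.

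The annotation rule left out many sequences of the same pathways. By description alone, 66 non-members matched an enzyme of these pathways or, in 8 cases, a carbonic anhydrase or malic enzyme. Of 47 past the filter, 17 were called ovule-high and 15 leaf-high. The carbonic anhydrases and malic enzymes gave 6 of these ovule-high calls and 0 of the leaf-high calls. By description or annotated function there were 157, with 51284 reads in ovule and 108487 in leaf. Of 129 past the filter, 31 were called ovule-high and 46 leaf-high. The 157 include 19 carbonic anhydrase, malic enzyme and pyruvate phosphate dikinase sequences, with 8 called ovule-high and 5 leaf-high. Some were placed by function though described as another protein, such as CL277.Contig1 among the catalases, described as a cationic amino acid transporter. Over all sequences, 27.3% were ovule-high and 35.1% leaf-high.

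The photorespiratory sequences outside the rule were divided, with 12 called ovule-high, 13 leaf-high and 21 under 2-fold of 46 past the filter. Some of the most-read ones were higher in leaf. The glycine decarboxylase P protein, which splits glycine in mitochondria, was represented by CL3962.Contig2 with 1846 reads in ovule and 23313 in leaf (110 RPKM in ovule, 1501 RPKM in leaf), 13.6-fold (13.0 to 14.3) higher in leaf. A glyoxylate aminotransferase function was annotated to Unigene11091, with 795 reads in ovule and 8837 in leaf, 12.0-fold (11.2 to 12.9) higher in leaf. The other 3 sequences of that group were called ovule-high, and without Unigene11091 the group turned, with 1387 reads in ovule and 398 in leaf, 3.23-fold (2.89 to 3.62) higher in ovule. Hydroxypyruvate reductase, the peroxisomal step before glycerate, was led by Unigene23869 with 720 reads in ovule and 5368 in leaf, 8.05-fold (7.44 to 8.71) higher in leaf. The catalase Unigene6522 had 1856 reads in ovule and 17917 in leaf, 10.4-fold (9.93 to 10.9) higher in leaf, near the 12.6-fold of the member catalase.

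Several other steps outside the rule did not share the direction toward leaf. Phosphoglycolate phosphatase opens the pathway. The 7 sequences placed there by annotated function were 1.23-fold (1.16 to 1.31) higher in ovule, with 2 called ovule-high and 0 leaf-high. None of their descriptions names this enzyme, so their place in this step is uncertain. Serine hydroxymethyltransferase outside the rule had 3021 reads in ovule and 2323 in leaf, a leaf-to-ovule ratio of 0.830 (0.786 to 0.876), and a sequence described as a 2-oxoglutarate/malate translocator, Unigene16430, was 4.75-fold (4.02 to 5.63) higher in ovule. A second P protein sequence, CL3962.Contig3, had 578 reads in ovule and 207 in leaf, a leaf-to-ovule ratio of 0.387 (0.328 to 0.454). The T and L proteins of the glycine decarboxylase complex had no sequence called in either direction, with a summed ovule-to-leaf ratio of 0.761 (0.703 to 0.822) for the T protein and 1.26 (1.16 to 1.36) for the L protein. The L protein is shared with other mitochondrial dehydrogenases. The H protein of the complex went toward leaf, with 18 reads in ovule and 77 in leaf, 4.62-fold (2.74 to 8.20) higher in leaf. Reads covered 15.6% of its Unigene23865 in ovule and 20.2% in leaf. Glycolate oxidase, thin among the members, was led by CL6892.Contig1 at 13 reads in ovule and 429 in leaf, 35.6-fold (20.6 to 67.4) higher in leaf, and Unigene18219 at 342 in ovule and 310 in leaf. Reads covered 12.9% of CL6892.Contig1 in ovule and 15.0% in leaf.

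Of 65 Calvin cycle sequences outside the rule past the filter, 11 were called ovule-high, 28 leaf-high and 26 lay under 2-fold. Over all sequences, 27.3% were ovule-high and 35.1% leaf-high. By description or annotated function they had 30333 reads in ovule and 38696 in leaf, 1.38-fold (1.36 to 1.40) higher in leaf. By description alone their summed reads had a leaf-to-ovule ratio of 1.07 (1.03 to 1.11). Phosphoribulokinase, which makes the acceptor for Rubisco, had 322 reads in ovule and 1561 in leaf in Unigene23859, 5.23-fold (4.64 to 5.92) higher in leaf. Reads covered 16.3% of its bases in ovule and 19.2% in leaf. The 3 activase sequences missed by the rule had 126 reads in ovule and 3045 in leaf, 26.1-fold (21.8 to 31.4) higher in leaf. The most-read of them, a GenBank sequence of 563 bases, was covered over 19.4% of its bases in ovule and 19.5% in leaf. In transketolase, Unigene18940 had 5698 reads in ovule and 12509 in leaf, 2.37-fold (2.30 to 2.45) higher in leaf. The rest of that group was 1.93-fold (1.27 to 2.98) higher in ovule. Phosphoglycerate kinase was 2.30-fold (2.20 to 2.40) higher in leaf, and 1.26-fold (1.13 to 1.42) without its most-read sequence. Fructose-bisphosphatase was 10.4-fold (9.42 to 11.6) higher in leaf, and 1.78-fold (1.52 to 2.09) without its most-read sequence. Fructose-bisphosphate aldolase, which serves both the cycle and glycolysis, was split, with Unigene24090 at 8893 reads in ovule and 1315 in leaf (1064 RPKM in ovule, 170 RPKM in leaf) and CL2802.Contig1 at 698 in ovule and 3345 in leaf (89.7 RPKM in ovule, 464 RPKM in leaf). Summed over 14 sequences, aldolase was 1.56-fold (1.51 to 1.61) higher in ovule. Leaving out Unigene24090 turned the group, to an ovule-to-leaf ratio of 0.359 (0.341 to 0.378). Glyceraldehyde-3-phosphate dehydrogenase, also shared with glycolysis, had 6263 reads in ovule and 2897 in leaf, a leaf-to-ovule ratio of 0.499 (0.478 to 0.522). Leaving out Unigene24048 moved that ratio to 0.890 (0.824 to 0.961). Ribose-5-phosphate isomerase had 3415 reads in ovule and 1682 in leaf, a leaf-to-ovule ratio of 0.532 (0.501 to 0.564).

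**Figure D5:**
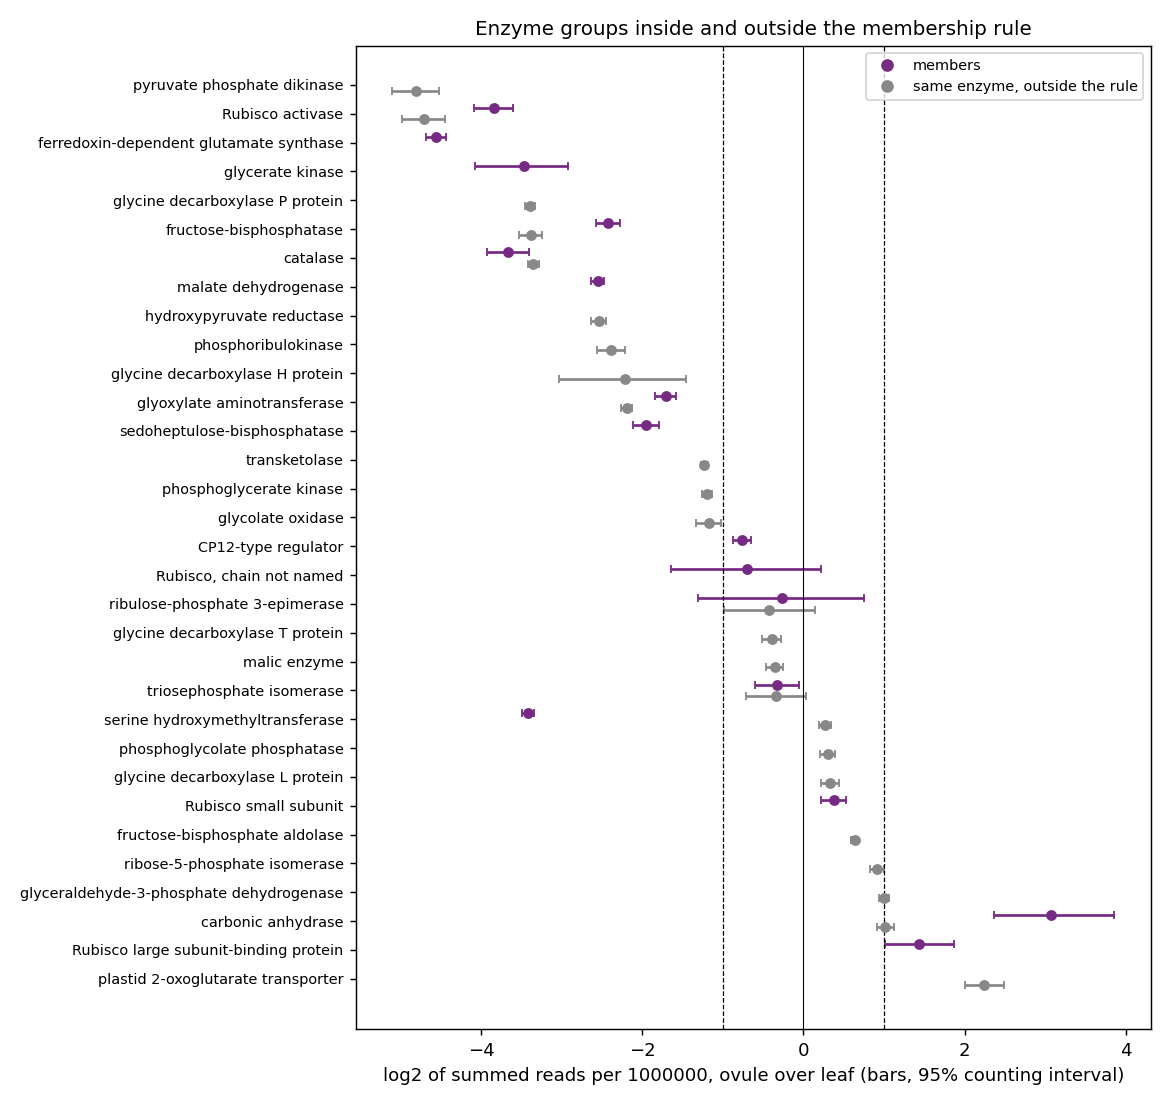
Points give the log2 ratio of summed reads per 1000000, ovule over leaf (x axis), with 95% counting intervals, for enzyme groups (y axis) with more than 20 reads, for members and for sequences of the same enzyme outside the membership rule. Rubisco activase, catalase and fructose-bisphosphatase lie toward leaf in both sets, while serine hydroxymethyltransferase lies at a leaf-to-ovule ratio of 10.7 among members and 0.830 outside.

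Markers of the tissues moved with these results, and their part in them was not tested. Of 5 leaf marker lists, 2 had summed reads higher in leaf beyond counting error. Chlorophyll a-b binding proteins had 3940 reads in ovule and 9733 in leaf, 2.67-fold (2.57 to 2.77) higher in leaf, and photosystem I reaction center proteins had 593 in ovule and 2759 in leaf, 5.02-fold (4.59 to 5.50) higher in leaf. Oxygen-evolving enhancer proteins had 192 ovule and 204 leaf reads, a difference within counting error. Plastocyanin and ferredoxin-NADP reductase had 11 or fewer reads in either library. All 5 ovule marker lists with a match were higher in ovule by summed reads. They ran from cyclin (702 ovule and 72 leaf reads) to AINTEGUMENTA (282 ovule and 0 leaf reads). Without its most-read sequence the MADS8 list turned, to an ovule-to-leaf ratio of 0.206 (0.0216 to 0.995). The same step lowered cyclin from 9.03-fold to 1.78-fold (1.33 to 2.40) and histone H3 from 20.8-fold to 3.17-fold (2.62 to 3.86). MADS10 and AINTEGUMENTA kept their direction. Of 7 cyclins past the filter, 3 were called ovule-high and 2 leaf-high.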

How the data were processed

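Messenger RNA of 1 ovule and 1 leaf library was compared. For each reference sequence the authors deposited, per the file headers, a count of uniquely mapped reads, a percent of bases covered and an RPKM value. Aligner and assembler are not given in the sources used, and no genome or sequence file was used. Both tables were joined by identifier, and a sequence absent from 1 table had 0 reads there. A count of 0 allows 3 reads, which on 1000 bases is 0.655 RPKM in ovule and 0.707 RPKM in leaf, and folds against 0 reads were computed against 3 reads in that library. Median reads per member were 15 in ovule and 11 in leaf. The members and lists were chosen with earlier results of these data known. Most hits name no function (129 of 219 members), so enzyme groups used the ontology columns as well as the description, a choice made after seeing the data, and groups for the remaining members were set from their annotation at the same stage. Named sequences were, per group, the 2 with the highest mean RPKM and the most extreme called member in each direction with 10 or more reads, and the 10 most extreme members each way at an RPKM of at least 10, 83 in all, of which those that matter most are printed. Outside the rule, the most-read sequences were named after their values were seen. One ovule marker pattern, proliferating cell nuclear antigen, matched no description. Ratios and intervals were computed with Python 3.11.15, pandas 2.3.3 and scipy 1.17.1, and TMM factors with edgeR 4.0.16, and the ratio code was tested on simulated data. Alternatives were other pseudocounts (1 and 0.1), no filter on low values, other filters (an RPKM of 5, 20 reads), TMM and TPM scaling, subsets of members by source or by coverage (30% of bases), reads summed per BLAST description, and leaving out the most-read sequence.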

Additional observations from a re-analysis of the deposited data

How the results depend on the processing

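Members called higher in ovule numbered 65 and kept within 1.5 times under the alternatives except for members by description alone (6 of 24 past the filter) and members with at least 30% of bases covered (30 of 78), a limit on members chosen after seeing the data. Members called higher in leaf numbered 49 of 158. They were 31 of 117 with the filter at 5 RPKM, 29 of 117 with 20 or more reads and 24 of 103 among assembled sequences. They were 13 of 24 by description alone, 19 of 78 at 30% coverage and 27 of 115 with reads summed per BLAST description. Fewer sequences lower a count by construction, but the share called leaf-high also fell in these settings, except by description alone, where it rose. Of the GenBank members past the filter, 25 of 55 were called leaf-high. The members' median log2 ratio of 0.69 was -1.05 by description alone. TMM and TPM scaling shifted the median of all sequences, -0.10 as deposited, to -0.24 (TMM) and -0.25 (TPM), and differences are read relative to it. For Calvin cycle reads sorted by description, the ovule-to-leaf ratio was 0.403, and 0.362 with TMM, 1.03 without the most-read sequence, 0.994 in assembled sequences, 0.332 at 30% coverage and 0.373 with function as well. For photorespiration reads it was 0.199, and 1.15 without the most-read sequence, 1.28 at 30% coverage and 0.114 with function as well. Among enzyme groups, malate dehydrogenase (1.69) and serine hydroxymethyltransferase (1.30) turned without their most-read sequence, as did the groups under 2-fold phosphoenolpyruvate carboxylase (0.585) and Rubisco small subunit (0.744, and 0.979 at 30% coverage). Of 61 recomputed values 34 stayed within the counting interval. A ratio of 0 or against 0 reads gave no value under an alternative. Outside the rule, sequences called higher in leaf numbered 15 by description and 46 with function, and in ovule 17 and 31. No paired analysis was possible because each tissue had 1 library, and no replicate could be left out. Sequences with few reads limit most of these counts.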
